A study of Mus musculus with 8 samples.

Results

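The 9 genes described here were taken as a list: G6pc, Slc2a2, Pck1, Fbp1, Ppargc1a, Pklr, Pfkfb1, Gys2 and Pygl, which release, make, burn or store glucose in hepatocytes. They were found by symbol in GENCODE M21, and 8 of the 9 had a transcriptional start site (TSS) in an H3K27ac region, among 12261 genes with a TSS in a region. Of 21911 annotated protein-coding genes, 44.7% had one. H3K27ac, acetylation of lysine 27 on histone H3, marks active promoters and enhancers. The mark was mapped by ChIP-seq in mouse primary hepatocytes (MPH) of wild-type adult male C57Bl6 mice (C57BL/6J in the study's methods). The cells received 1 µM thapsigargin, which blocks the calcium pump of the endoplasmic reticulum (ER) and so induces ER stress (ERS), or 0.04% DMSO as vehicle, in both cases for 4 h. There are 8 libraries, with 3 of H3K27ac and 1 of input for each treatment, and the 3 come from separate experiments. The cells were cultured outside the liver, and 1 time point was sampled.

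The deposited values are positions in base pairs (bp) on mm10 in 3 lists of regions, named UP, DOWN and unchanged by the authors. A region is UP or DOWN where the authors' paired test called it at a false discovery rate of 0.05 or less, with at least 2 rising bins for each falling one or the reverse. Regions above that rate are unchanged, which does not show that the mark stayed equal. The lists hold 5508 UP, 3376 DOWN and 23312 unchanged regions, 32196 in all, and the called regions with a mixed pattern are in none of them. Beyond the position and name of each region the lists hold nothing: neither read counts nor the size of a change. The depth is therefore unknown, a width or a count below carries no replicate error, and libraries could not be tested against each other. Of 6 hepatocyte markers, 6 had a TSS in a region. The same held for 0 of 4 stellate cell markers, 1 of 4 Kupffer cell markers (Cd68), 1 of 4 endothelial markers (Stab2) and 0 of 3 cholangiocyte markers.

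Hepatocytes keep blood glucose up between meals by breaking down glycogen and by gluconeogenesis, which runs from pyruvate back to glucose through PEPCK (Pck1) and fructose-1,6-bisphosphatase (Fbp1). Glucose-6-phosphatase (G6pc) then frees glucose, and the transporter GLUT2 (Slc2a2) carries it across the plasma membrane in either direction. After a meal the flux turns round: liver pyruvate kinase (Pklr) closes glycolysis, and glycogen synthase (Gys2) stores the surplus. Hormones and transcription factors of the hepatocyte set much of this balance at the promoters of these genes.

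At TSSs of the 9 genes lay DOWN and unchanged regions but no UP region. Slc2a2, Pklr and Pfkfb1, 3 of the 9 genes, had a TSS in a DOWN region, against 8.91% of all genes at regions (8.31% of protein-coding ones). None (0 of 9) had a TSS in an UP region, where 21.4% of all such genes did. The TSSs of G6pc, Pck1, Fbp1, Gys2 and Pygl lay in unchanged regions only. Pfkfb1 had further TSSs, its principal one among them, in an unchanged region. Of all genes with a TSS in a region, 73.7% had a TSS in an unchanged region. Ppargc1a had no TSS in any region, so the shares of all genes at regions correspond to the other 8. Of 36 annotated transcripts of the 9 genes, 25 started in a region, 10 of them in DOWN and 15 in unchanged regions. Transcripts that share a region are not separate observations. The 10 lay in 4 DOWN regions of 3 genes, with 5 of them in the single region of Pklr, and the 15 lay in 7 unchanged regions.

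**Figure D1:**
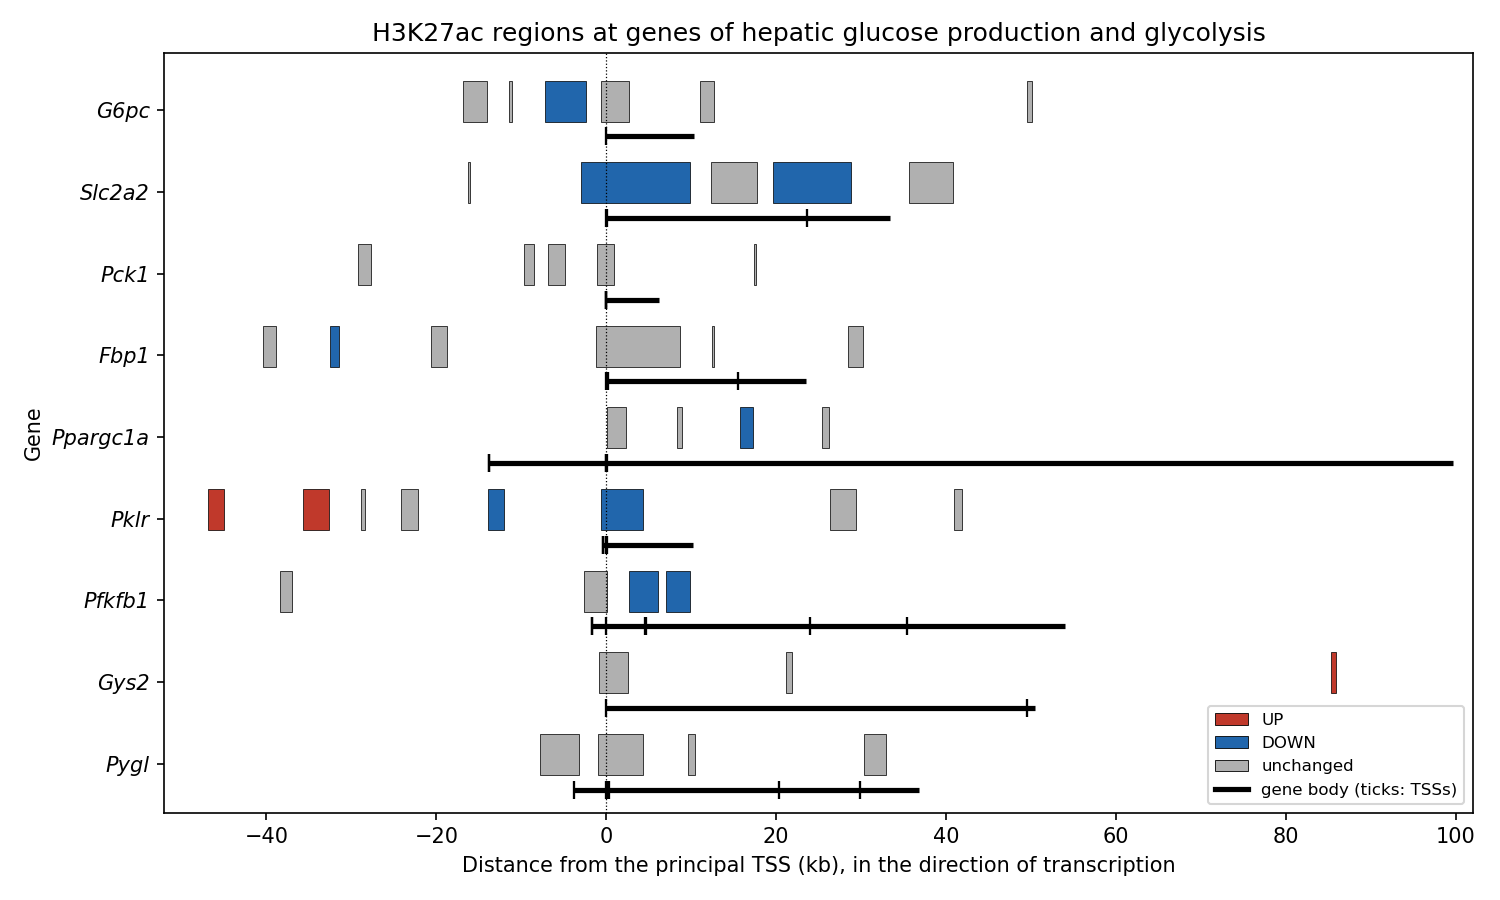
Each row is 1 gene, with H3K27ac regions that overlap the gene body or lie within 50 kb of any TSS drawn as boxes by class (red UP, blue DOWN, grey unchanged) against the distance in kb from the principal TSS, in the direction of transcription. Black lines are gene bodies and ticks are TSSs. The DOWN boxes cover the TSSs of Slc2a2 and Pklr, lie inside Pfkfb1 and Ppargc1a, and lie upstream of G6pc, Fbp1 and Pklr.

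The 250 bp before the TSS are shown for the genes with a TSS in a DOWN region. They are also shown for G6pc and Pck1, the classical hormone-regulated promoters of glucose production, whose regions were unchanged. The classes are those of whole regions, and the 250 bp were not called by themselves. Sequences were read from the GRCm38 genome of RefSeq (mm10), each on the plus strand, which is the coding strand of all 5 genes, 5′ to 3′. Capitals mark matches to the motifs given below. The stretches are chr11:101367311-101367560 for G6pc, chr3:28697653-28697902 for Slc2a2, chr2:173152798-173153047 for Pck1, chr3:89136322-89136571 for the liver promoter of Pklr and chrX:150594228-150594477 for the Pfkfb1 transcript ENSMUST00000112713.2, which starts in the DOWN region.
G6pc: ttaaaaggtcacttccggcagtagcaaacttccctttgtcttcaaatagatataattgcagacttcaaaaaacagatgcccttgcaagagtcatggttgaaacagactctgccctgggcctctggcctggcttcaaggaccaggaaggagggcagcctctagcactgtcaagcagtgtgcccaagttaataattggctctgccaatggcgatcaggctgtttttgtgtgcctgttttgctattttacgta
Slc2a2: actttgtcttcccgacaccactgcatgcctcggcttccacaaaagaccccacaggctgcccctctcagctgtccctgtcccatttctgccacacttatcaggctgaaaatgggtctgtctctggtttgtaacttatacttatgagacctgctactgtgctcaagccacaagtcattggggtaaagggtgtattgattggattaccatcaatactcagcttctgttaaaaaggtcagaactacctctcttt
Pck1: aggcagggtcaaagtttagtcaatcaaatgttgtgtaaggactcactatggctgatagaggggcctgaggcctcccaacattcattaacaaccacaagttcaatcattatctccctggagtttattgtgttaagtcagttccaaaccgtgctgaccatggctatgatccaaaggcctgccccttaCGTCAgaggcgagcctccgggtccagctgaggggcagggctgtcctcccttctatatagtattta
Pklr: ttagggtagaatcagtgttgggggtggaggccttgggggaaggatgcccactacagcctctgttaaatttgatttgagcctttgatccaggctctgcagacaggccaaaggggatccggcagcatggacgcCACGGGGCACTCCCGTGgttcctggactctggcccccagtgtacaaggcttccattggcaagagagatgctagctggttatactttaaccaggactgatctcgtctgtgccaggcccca
Pfkfb1: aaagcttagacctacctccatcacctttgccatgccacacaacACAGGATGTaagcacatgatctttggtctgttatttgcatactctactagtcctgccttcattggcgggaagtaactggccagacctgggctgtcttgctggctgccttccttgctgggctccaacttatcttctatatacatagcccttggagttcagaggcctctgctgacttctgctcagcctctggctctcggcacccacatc

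Motifs were searched on both strands. They were the CRE bound by CREB (TGACGTCA) and its half-site (TGACG), the core of the composite element of CHOP and ATF4 (TGATGNAA), the UPRE (TGACGTGG), an HNF4 core (CAAAGTCCA), FOXA/FOXO (TGTTTAC), C/EBP (TTGCNNAA), the GRE (ACANNNTGT), the E-box (CACGTG) and the D-box (TTANGTAA). The half-site is part of both the CRE and the UPRE. The capitals in Pck1 are a CRE half-site on the opposite strand, 65 bp before the TSS, a match found in 19.8% of 21829 protein-coding promoters of this length. The Pfkfb1 stretch holds a GRE match 207 bp before its TSS, and 4.96% of promoters hold one. No motif of the list matched exactly in the G6pc and Slc2a2 stretches. Variants of the motifs and sequence past the annotated TSSs were not searched, so sites of these kinds could be missed.

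The carbohydrate response element, the site of ChREBP for which the liver promoter of Pklr is known, was added after this sequence had been seen. It was written as CACGNG and CNCGTG placed 5 bases apart. The match in Pklr began 119 bp before the liver TSS, and 11 of 21829 promoters (0.0504%) hold one. Because the element was chosen with the Pklr sequence known, this share is not comparable with those of the other motifs. Before the principal TSSs of the other 4 genes, Ppargc1a held a CRE (83 bp before the TSS, 2.06% of promoters), Pygl held a CRE half-site, and Fbp1 and Gys2 held no match to the 10 motifs. The stretch before the principal TSS of Pfkfb1, not printed because part of it is exonic, held a C/EBP match (8.91% of promoters). These matches are letters in the reference sequence, and binding was not measured.

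Glucose release is the last step of hepatic glucose production, and its enzyme and its transporter differed in class. G6pc, the catalytic subunit of glucose-6-phosphatase, lies at chr11:101367561-101377903 and has 1 annotated transcript of 5 exons. Its TSS lay in an unchanged region of 3288 bp (chr11:101366921-101370208) that covers exon 1 and part of intron 1. A DOWN region of 4742 bp, chr11:101360404-101365145, ended 2416 bp upstream of the TSS and 1775 bp before the unchanged region. It holds no TSS, and G6pc is the nearest protein-coding gene. The H3K27ac around this gene was thus split between an unchanged promoter region and a DOWN upstream region. Of 9805 protein-coding genes with a TSS in a region, 5.28% had TSSs in unchanged regions only and a DOWN region within 10 kb. No UP region lay within 50 kb of G6pc, and the nearest, 1357 bp wide at the TSS of Psme3, lay 50633 bp away, just outside that window.

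Slc2a2 encodes GLUT2, the main glucose transporter of hepatocytes, and lies at chr3:28697903-28731359. The principal TSS and that of a second transcript lay in a DOWN region of 12825 bp (chr3:28694974-28707798), which runs from 2929 bp before the principal TSS to 9895 bp after it and covers exons 1 and 2. Only 1.75% of all DOWN regions are wider, and it ranks 60 among the 3376. The third transcript, a retained intron that starts 23614 bp further into the gene, lay in a second DOWN region of 9157 bp (chr3:28717592-28726748), which covers exons 6 to 9. Between the DOWN regions stood an unchanged region of 5511 bp over exon 4, and another unchanged region of 5182 bp lay past the 3′ end. DOWN regions covered 56.9% of the gene and unchanged regions 16.5%. Among protein-coding genes with a TSS in a region, 0.989% had at least that share of the gene in DOWN regions, and 0.367% had TSSs in 2 or more DOWN regions. No UP region was found closer than 547417 bp.

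The gluconeogenic enzymes had TSSs in unchanged regions. Pck1, cytosolic PEPCK and a textbook target of glucagon and glucocorticoids, lies at chr2:173153048-173159273. All 4 of its transcripts started in an unchanged region of 1984 bp (chr2:173152015-173153998), the narrowest of the 11 regions at TSSs of the 9 genes. The 4 further regions within 50 kb, of 285 to 1944 bp, were unchanged as well, among them a pair between 4882 and 9668 bp upstream. The nearest UP region lay 107850 bp away. The nearest DOWN region, 5598 bp wide at the TSS of Zfp217, lay 3018829 bp away.

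Fbp1, fructose-1,6-bisphosphatase of liver, lies at chr13:62864753-62888282 on the minus strand. In 2 of its 3 transcripts the TSS lay in an unchanged region of 9930 bp (chr13:62879570-62889499). It reaches from 1217 bp before the principal TSS to 8712 bp after it, inside intron 1. This is the second widest region at a TSS of the 9 genes, and only 0.352% of all unchanged regions are wider. A DOWN region of 1156 bp with no TSS (chr13:62919694-62920849) lay 31412 bp upstream between unchanged regions, and Fbp1 has the nearest protein-coding TSS. The window also holds an unchanged region of 1838 bp at the TSS of the paralog Fbp2.

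Ppargc1a encodes PGC-1α, a coactivator that drives gluconeogenic genes in fasting. The gene spans 113477 bp, chr5:51454250-51567726 on the minus strand, and 0 of its 5 transcripts started in a region. An unchanged region of 2223 bp (chr5:51551578-51553800) began 71 bp downstream of the nearest TSS and 122 bp downstream of the principal one, so that the class of this TSS depends on whether a margin is allowed. A DOWN region of 1572 bp (chr5:51536643-51538214) lay in intron 2, 15657 bp from the nearest TSS, between unchanged regions of 653 and 805 bp. All these regions lie in the gene, and together they cover 4.63% of it.

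Both glycolytic genes had a TSS in a DOWN region. Pklr encodes the pyruvate kinases of liver (L-type) and red blood cells (R-type) from alternative first exons and lies at chr3:89136142-89146784. All 5 of its transcripts, the R-type one at 89136142 and the L-type one at 89136572, 430 bp downstream, started in a single DOWN region of 5034 bp (chr3:89135908-89140941). It reaches 4369 bp past the liver TSS, covers exons 1 and 2 of the liver transcript and makes up 45.1% of the gene. No unchanged region overlapped Pklr, and 1.26% of protein-coding genes with a TSS in a region had at least that share of the gene in DOWN regions. A second DOWN region, 1877 bp wide with no TSS, lay 11656 bp upstream of the nearest TSS. Further upstream the class turned: UP regions lay at the TSS of Rusc1 (1888 bp) and at that of Fdps, the farnesyl diphosphate synthase of the sterol pathway (3052 bp, shared with Gm43738), 44584 and 32155 bp away. On the other side, the regions at the TSSs of Clk2 and Scamp3 were unchanged.

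Pfkfb1 encodes the liver form of the enzyme that makes and removes fructose-2,6-bisphosphate, the signal that switches between glycolysis and gluconeogenesis. It lies at chrX:150588229-150643878 and its 7 transcripts start in several places. The principal TSS and those of 2 transcripts upstream of it, 3 of 7, lay in an unchanged region of 2724 bp (chrX:150587307-150590030) that also holds a TSS of Apex2, a DNA repair nuclease. The principal TSS lay 109 bp from the edge of that region. A coding transcript and a retained intron that start 4557 and 4689 bp downstream, 2 of 7, lay in a DOWN region of 3436 bp (chrX:150592556-150595991). A second DOWN region of 2826 bp (chrX:150596993-150599818) followed after 1001 bp in intron 1. Both together cover 11.3% of the gene, and 5.39% of protein-coding genes with a TSS in a region have at least that share in DOWN regions. Alternative promoters of 1 gene were thus in different classes, a pattern of DOWN and unchanged TSSs found in 1.85% of protein-coding genes with a TSS in a region. Which of these promoters the cells used was not measured.

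Genes of glycogen storage had unchanged regions at their TSSs. Gys2, glycogen synthase of liver, lies at chr6:142422613-142473109 on the minus strand. Its principal TSS lay in an unchanged region of 3483 bp, and a short unchanged region of 749 bp lay over exon 8. The other coding TSS, 49490 bp into the gene, was in no region. The UP region in the window, 559 bp at the TSS of Golt1b, lay 35857 bp from that second TSS and 85347 bp from the principal one. No DOWN region lay closer than 176274 bp.

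Pygl, glycogen phosphorylase of liver, lies at chr12:70190811-70231488 on the minus strand. Of its 6 transcripts, 3 started in an unchanged region of 5298 bp, which also holds a TSS of F730035M05Rik, and 1 started upstream in an unchanged region of 4537 bp. Unchanged regions of 859 and 2618 bp lay further into the gene. The nearest UP region, at the TSS of Nin, lay 85825 bp away and the nearest DOWN region 641121 bp away. Pck1 and Pygl were the 2 genes of the 9 with neither an UP nor a DOWN region within 50 kb.

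**Figure D2:**
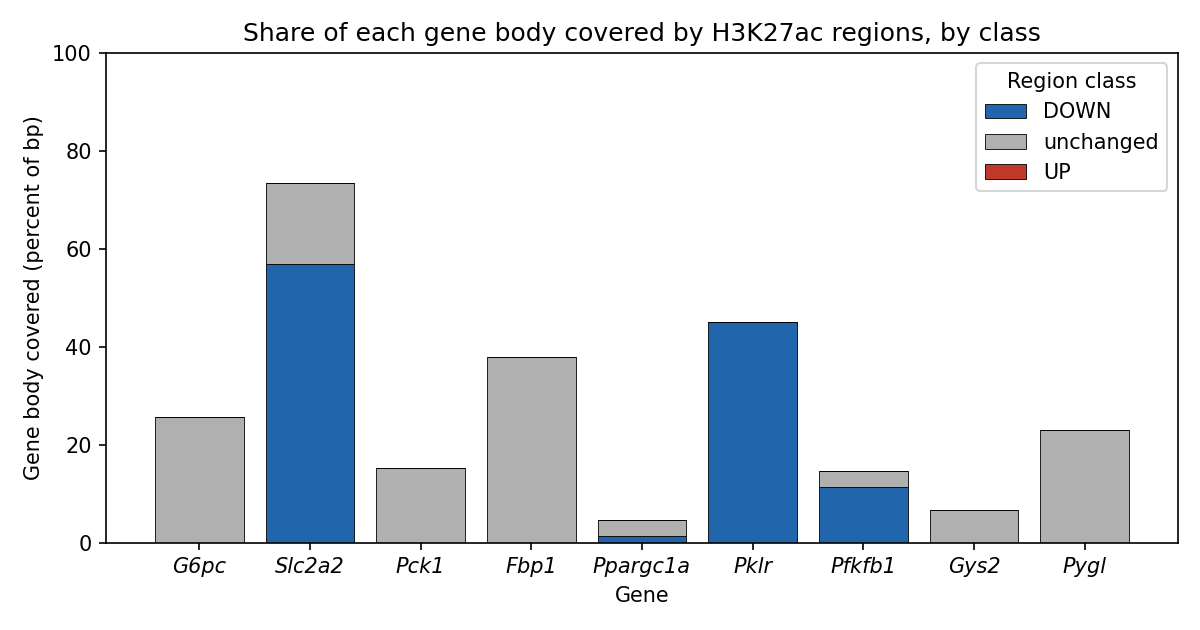
Bars give the percent of the base pairs of each gene covered by DOWN (blue), unchanged (grey) and UP (red) regions. DOWN regions cover 56.9% of Slc2a2, 45.1% of Pklr, 11.3% of Pfkfb1 and 1.39% of Ppargc1a, and UP regions cover 0 bp of all 9 genes.

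Gene bodies held no UP region either, but the 11 regions at TSSs are among those counted here, 4 of them DOWN. The 9 genes overlapped 21 regions, of which 6 were DOWN, 15 unchanged and 0 UP. The DOWN regions lay in Slc2a2 (2), Pfkfb1 (2), Pklr (1) and Ppargc1a (1). Over all protein-coding genes with a TSS in a region, 15.4% had a DOWN region in the gene body, 31.2% an UP region and 83.6% an unchanged one. Unchanged regions lay in 8 of the 9 genes, all but Pklr. Coverage by any region ran from 4.63% of Ppargc1a and 6.64% of Gys2 to 73.4% of Slc2a2.

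Within 50 kb of the TSSs the 9 genes had more DOWN than UP regions. The windows, together with the gene bodies, held 45 regions, with 3 UP (6.67%), 9 DOWN (20.0%) and 33 unchanged (73.3%). In the lists as a whole 17.1% of regions are UP, 10.5% DOWN and 72.4% unchanged. At least 1 DOWN region lay near G6pc, Slc2a2, Fbp1, Ppargc1a, Pklr and Pfkfb1, 6 of the 9 genes, where 31.3% of protein-coding genes with a TSS in a region have one. An UP region lay near Pklr and Gys2, 2 of the 9, where the share is 53.6%. All 9 had an unchanged region in the window, as did 96.8% of protein-coding genes with a TSS in a region. More DOWN than UP regions were counted at 5 genes (18.6% of protein-coding genes with a TSS in a region), and more UP than DOWN at Gys2 alone (42.1%). For each of the 9 DOWN regions the nearest protein-coding TSS was that of the listed gene, as it was for 25 of the 33 unchanged regions. Of the 9 DOWN regions, 5 hold no TSS of any gene, and each of the 3 UP regions held the TSS of another gene. In the lists as a whole, 928 of 3376 DOWN and 2047 of 5508 UP regions hold a TSS. At the other 7 genes, the nearest UP region lay between 50633 bp (G6pc) and 547417 bp (Slc2a2) from a TSS, with 157017 bp at Fbp1, 162001 bp at Ppargc1a and 391514 bp at Pfkfb1.

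Regions at TSSs of these genes were wide, and among all regions at TSSs the wide ones are more often UP or DOWN. The 11 regions at their TSSs measured 1984 to 12825 bp with a median of 4537 bp, against a median of 1735 bp for all 10642 regions at TSSs. The DOWN ones among them had a median of 7095.5 bp and the unchanged ones of 3483 bp, and the corresponding medians for all regions at TSSs are 3828.5 bp and 1530 bp. With all regions at TSSs divided into 10 classes of width, the DOWN share runs from 1.41% in the narrowest to 30.2% in the widest and the UP share from 8.81% to 25.7%. Both DOWN regions of Slc2a2 fall in the widest class, that of Pklr in the ninth (17.8% DOWN and 25.8% UP) and that of Pfkfb1 in the eighth (10.4% DOWN and 22.9% UP). The unchanged region of Fbp1 and the wider one of Pygl stand in the widest class too. The part of width and depth in the calls was not tested.

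**Figure D3:**
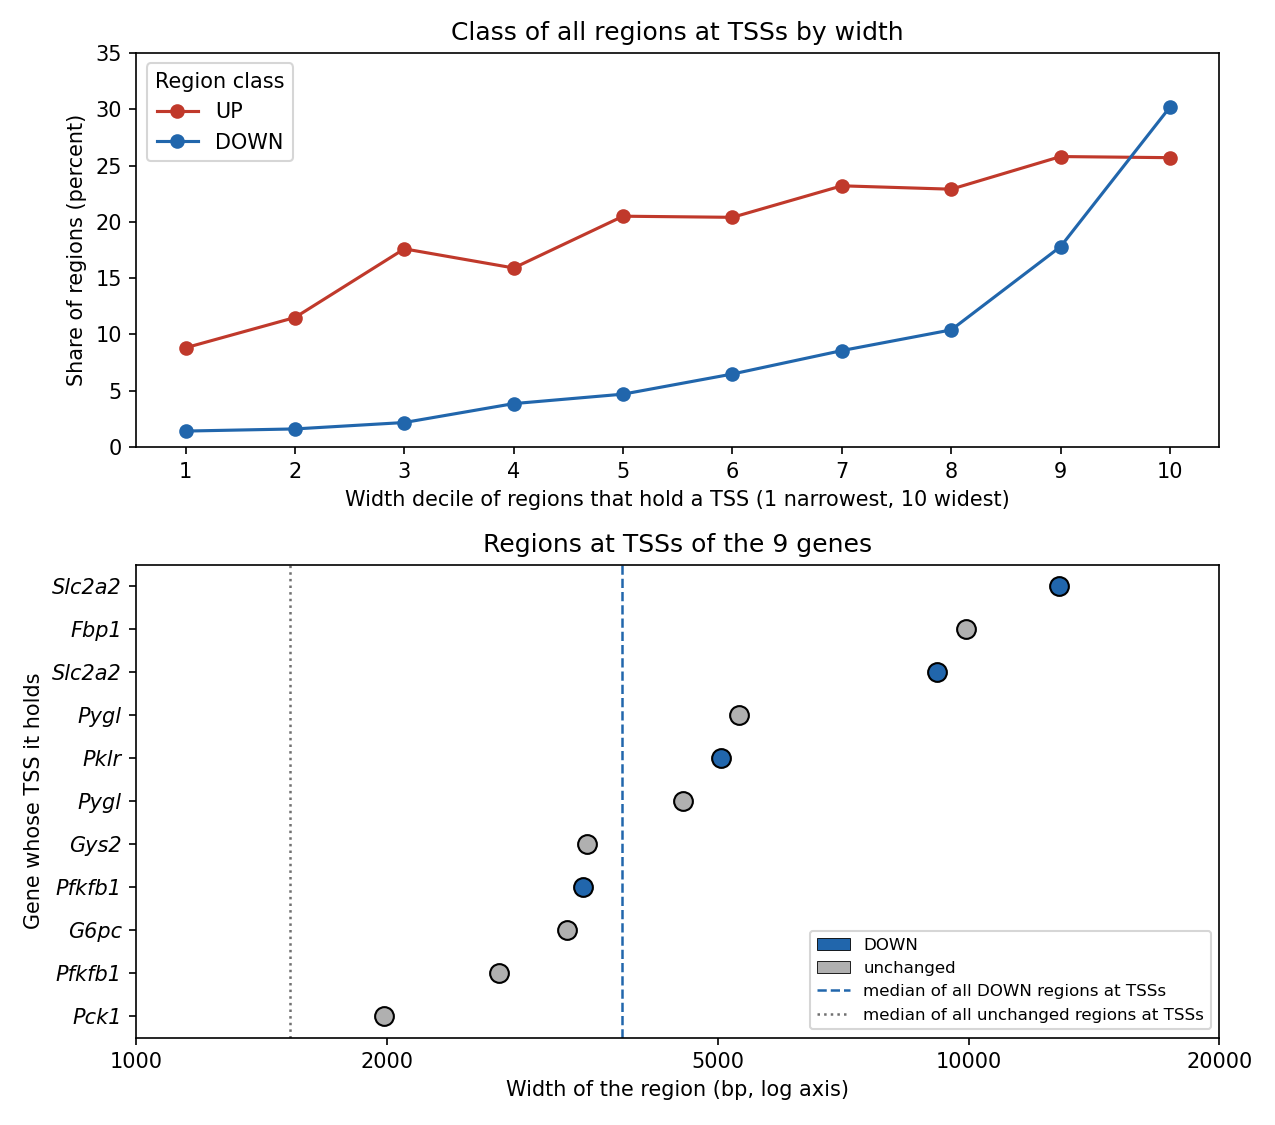
The upper panel plots the percent of regions that are UP (red) or DOWN (blue) in each width decile of all regions that hold a TSS. The lower panel plots the width in bp, on a log axis, of the 11 regions at TSSs of the 9 genes by class (blue DOWN, grey unchanged), with the median widths of all DOWN (dashed) and unchanged (dotted) regions at TSSs. The DOWN share is 30.2% and the UP share 25.7% in the widest decile, and the DOWN points of the 9 genes lie between 3436 and 12825 bp.

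Other genes of glucose metabolism were looked up as a list of 95, in 6 groups by role, of which 72 had a TSS in a region. DOWN regions held TSSs of 7 of these (9.72%), near the 8.91% of all genes, and UP regions those of 20 (27.8%), beside 21.4% of all genes. No gene of the list had TSSs in both. More UP than DOWN regions within 50 kb were counted at 33 of the 72 and more DOWN than UP at 10.

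In glucose release and gluconeogenesis, 2 of 13 genes with a region were DOWN (15.4%) and 6 were UP (46.2%). Among all genes with a region the shares are 8.91% and 21.4%. Pcx, pyruvate carboxylase, which opens gluconeogenesis in mitochondria, had 2 of 7 transcripts in a DOWN region of 8802 bp and 4 in unchanged ones. Mpc1, a subunit of the mitochondrial pyruvate carrier, had 6 of 8 transcripts in a DOWN region of 4316 bp. The UP genes were G6pc3, the widely expressed glucose-6-phosphatase (898 bp), Pck2, mitochondrial PEPCK (1217 bp), the malate dehydrogenases Mdh1 (3730 bp) and Mdh2 (8430 bp), and the aspartate aminotransferases Got1 (6278 bp) and Got2 (5320 bp).

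In glycolysis, 0 of 16 genes with a region were DOWN and 6 (37.5%) were UP. Among all genes with a region, 8.91% were DOWN and 21.4% UP, and a difference of this group from other genes was not tested. Among the UP genes were Gckr (5064 bp), Pfkl, liver phosphofructokinase (1220 bp), Tpi1 (9765 bp), Pgk1 (5652 bp) and Pgam1 (2708 bp). In fructose and pyruvate handling, UP regions held Pdha1 (2080 bp) and Pdhb (3998 bp), the subunits of the E1 enzyme of pyruvate dehydrogenase, and Pdk4 (3622 bp), a kinase that inactivates it, 3 of 7 genes with a region. Enzymes of opposite effect, Pdha1 and Pdk4, thus stood in the same class.

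For glycogen, 14 of 19 listed genes had a region at a TSS. Of these, 1 was DOWN (7.14%) and 4 were UP (28.6%), against 8.91% and 21.4% of all genes. UP regions held TSSs of Pgm2 (3113 bp) and of Ugp2 (4797 bp), which handles a precursor of glycogen. They also held TSSs of Ppp1r3c (851 bp) and Stbd1 (2886 bp), which tie proteins to glycogen. Pgm2 had a further TSS in an unchanged region. Of the sugar transporters, 2 of 6 had a region, and Slc2a9, a urate transporter of the GLUT family, had TSSs in a DOWN region (1624 bp) and an unchanged one (4345 bp).

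Among regulators, 3 of 20 genes with a region were DOWN (15.0%) and 1 was UP (5.0%). The shares of all genes with a region are 8.91% and 21.4%, and a difference from them was not tested. The DOWN genes include transcription factors of the hepatocyte, Hnf4a (13466 bp, 4 of 5 transcripts) and Creb3l3 (3903 bp, 2 of 4), a membrane-bound factor of the CREB family that is cleaved on leaving the ER. The 50 kb window of Hnf4a held 7 DOWN and 0 UP regions. Trib3, a pseudokinase induced by ATF4 and CHOP in ERS, was the UP one (1846 bp, 3 of 3). The other 16 had unchanged regions only.

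**Figure D4:**
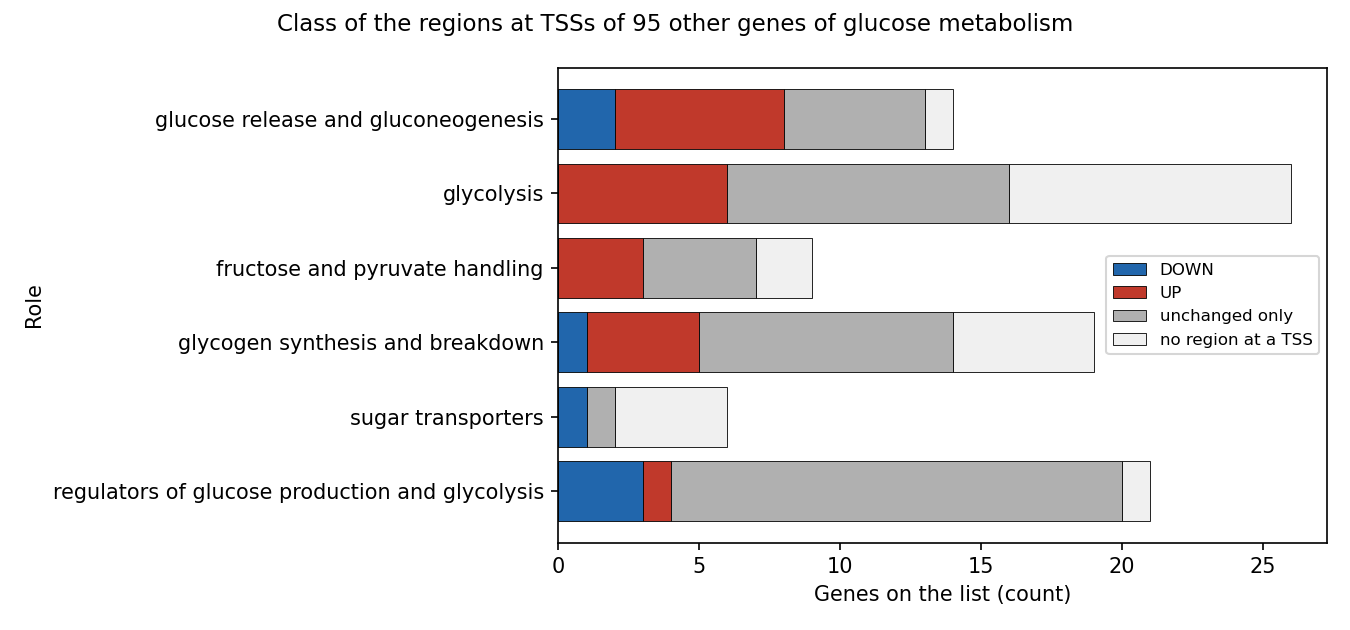
Bars count the 95 other genes of glucose metabolism by role and by the class of the region at a TSS: DOWN (blue), UP (red), unchanged only (grey) or no region (light). Glycolysis has 6 UP and 0 DOWN genes, and regulators have 1 UP and 3 DOWN.

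Paralogs of the 9 genes were set beside them after the values had been seen. G6pc and Pck1 lay in unchanged regions, while the TSSs of G6pc3 and Pck2 lay in UP regions and G6pc2 had no region at a TSS. Where Pklr was DOWN, Pkm, the pyruvate kinase of most other tissues, was unchanged (1440 bp). Against the DOWN regions of Slc2a2 stood an unchanged region at Slc2a1 (1695 bp), while Slc2a9 had TSSs in a DOWN region and in an unchanged one. Pfkfb2 (2984 bp) and Pfkfb3 (974 bp) were unchanged, and Pfkfb4 had no region at a TSS. Gys1 (1733 bp) and Ppargc1b (3292 bp) were unchanged, and the brain and muscle phosphorylases Pygb and Pygm had no region at a TSS.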

How the data were processed

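H3K27ac ChIP-seq was analysed in MPH treated with thapsigargin or DMSO, 3 H3K27ac libraries and 1 input each. Per the paper's methods and code, the authors aligned reads with Bowtie to mm10, called broad MACS2 peaks on pooled libraries, filtered bins of 150 bp against input, normalized by loess and tested them with csaw in a paired model. The processed files deposited by the authors hold region positions in bp, with no value per library. The depth per library is unknown, and depth or normalization could affect which regions were called.

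BED starts were made 1-based. A TSS was that of any GENCODE M21 transcript (141730 outside the mitochondrial genome), and the principal TSS that of the APPRIS principal transcript. Regions overlapping a gene by 1 bp or within 50 kb of a TSS were counted. Motifs were matched exactly in 250 bp before TSSs. The 9 genes and all lists and motifs were chosen with earlier results of these data known. Named were the 9 genes, listed genes at UP or DOWN regions, genes sharing a region with a TSS of the 9, and the nearest UP and DOWN regions, and some of the genes and motifs are not reported here. Alternatives changed the TSSs used, the margin, the window, the minimum width, the background and the promoter length. Counting functions were tested on simulated data. Python 3.11.15, numpy 2.4.6 and pandas 2.3.3 were used.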

Additional observations from a re-analysis of the deposited data

How the results depend on the processing

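Counts of genes at UP, DOWN and unchanged regions were within 1.5 times of those reported with protein-coding transcripts alone, with 500 bp of region required on each side of the TSS, with a margin of 1 kb around the TSS or with regions of at least 1 kb. The margin of 1 kb added Ppargc1a to the genes with an unchanged region, 7 in place of 6. Of 53 recomputed values, 39 were the same by this measure or within the 95% interval of a share. Within 10 kb of TSSs there were 0 UP and 15 unchanged regions, and 9 UP regions within 100 kb, in place of 3 and 33 within 50 kb. With regions given to the nearest protein-coding TSS, 0 UP regions were left. Before principal TSSs, and without the added carbohydrate response element, pairs of a gene and a motif numbered 10 in 500 bp and 5 in 250 bp. Against all annotated protein-coding genes the background was 9.69% UP and 3.72% DOWN. DOWN regions in gene bodies were 28.6% of regions and 46.7% of covered base pairs. No paired analysis was possible because the lists hold no value per library, and for the same reason no replicate could be left out. Depth limits which regions reach a call, and it is unknown here.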
